A study of Mus musculus with 28 samples.

Results

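The 34 macrophage and Kupffer cell markers described here were chosen by name, as the genes whose probes carry an accession of a marker symbol, among the 20303 genes and unnamed transcripts (14573 with a symbol) measured on 28 mouse liver arrays; for brevity all 20303 are called genes below. All 34 were found, on 47 probes. They were read as 5 resident Kupffer cell markers (Clec4f, Timd4, Vsig4, Cd5l and Marco) and 29 others: 9 markers of recruited monocytes and injury macrophages, 5 of the macrophage lineage, the 3 chains of complement C1q, 3 scavenger receptors, 4 Fc receptors and signalling adaptors, and 5 lysosome, oxidase and pattern recognition genes.

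Kupffer cells are the macrophages that live in the liver sinusoids, where they take up particles, bacteria and dying cells. When they are lost or the liver is injured, monocytes come in from the blood through the chemokine receptor Ccr2 and can become macrophages, which take on resident markers such as Clec4f and Timd4 late or in part. Macrophages that clear lipid and dead cells at sites of injury are known for Trem2, Gpnmb, Cd63 and Lgals3, of which Cd63 and Lgals3 are also made by other cells, epithelial cells among them.

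All mice lacked fumarylacetoacetate hydrolase (Fah), the last enzyme of tyrosine breakdown, and live on the drug nitisinone (NTBC), which blocks an earlier enzyme, Hpd, so that toxic metabolites do not form. The groups, with 4 liver samples each and 1 array per sample, were Fah-/- p53-/- mice with no, reduced and full NTBC, Fah-/- p21-/- mice with no NTBC, and Fah-/- mice with no, reduced and full NTBC. Full NTBC was 7.5 mg/L in the drinking water. The reduced dose is 25% of it in the sample labels but 2.5%, given for 3 months, in the series design, and no source used here gives the time without the drug, the age or the strain. The p53-/- and p21-/- mice carry the Fah deletion as well, so every comparison of genotypes is made on the Fah-/- background. The labels do not say that samples came from separate animals. Each p-value rests on the spread among samples within groups, pooled over the 7 groups, and that spread may be technical.

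Scan dates were compared by 1 part of the date only, read as the year, and scan sessions within it were not resolved. Each dose had its own value of that part (3 values), and the effects of dose and of scan date cannot be told apart. At full and reduced NTBC each genotype has its own slide, while the 12 arrays with no NTBC lie on 3 slides with 2 groups each. All 4 Fah-/- p53-/- samples with no NTBC and replicates 1 and 2 of Fah-/- p21-/- showed Xist without Ddx3y, and all others showed Ddx3y, Fah-/- replicate 2 with no NTBC together with Xist. The Fah-/- p53-/- samples on reduced and full NTBC showed Ddx3y alone, so in that genotype sex and dose cannot be told apart in the comparisons of no NTBC, nor in the difference between genotypes in that response. In 3 arrays the spread from their own group over all genes was widest: Fah-/- p53-/- replicate 1 with no NTBC (SD 0.793), Fah-/- p21-/- replicate 1 (0.661) and Fah-/- p21-/- replicate 2 (0.554). These 3 also stood apart in the markers. Over the 34 markers, Fah-/- p53-/- replicate 1 lay on average 1.33 log2 units below the other arrays of its group and was the lowest of the 4 for 31 markers, Fah-/- p21-/- replicate 2 lay 1.46 below and was lowest for 33, and Fah-/- p21-/- replicate 1 lay 1.18 above and was highest for 24. Results that rest on them are given with and without them.

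Each level below is the log2 of the processed intensity after division by the 75th percentile of its array, so a level of 0 equals that percentile, and they compare 1 gene between samples, not genes with each other. Changes are given on the log2 scale with ± SE, all from a single limma model of the 28 arrays, and a gene is called higher or lower at an adjusted p under 0.05 (Benjamini-Hochberg over 20303 genes). In whole liver RNA, a change in the number of cells of a type and a change in RNA per cell cannot be told apart. Of the 34 markers, 29 were well above background on every array, and Ccr2, Cx3cr1, Itgam, Gpnmb and Spi1 were not. All 34 passed the filter on dim probes, Cx3cr1 and Itgam only through groups with no NTBC. Ccr2, Gpnmb and Spi1 passed through groups with no NTBC and Fah-/- p53-/- livers on reduced NTBC, and through no group on full NTBC. The liver label held: all 10 hepatocyte genes with a probe, albumin among them, were well above background on every array.

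**Figure D1:**
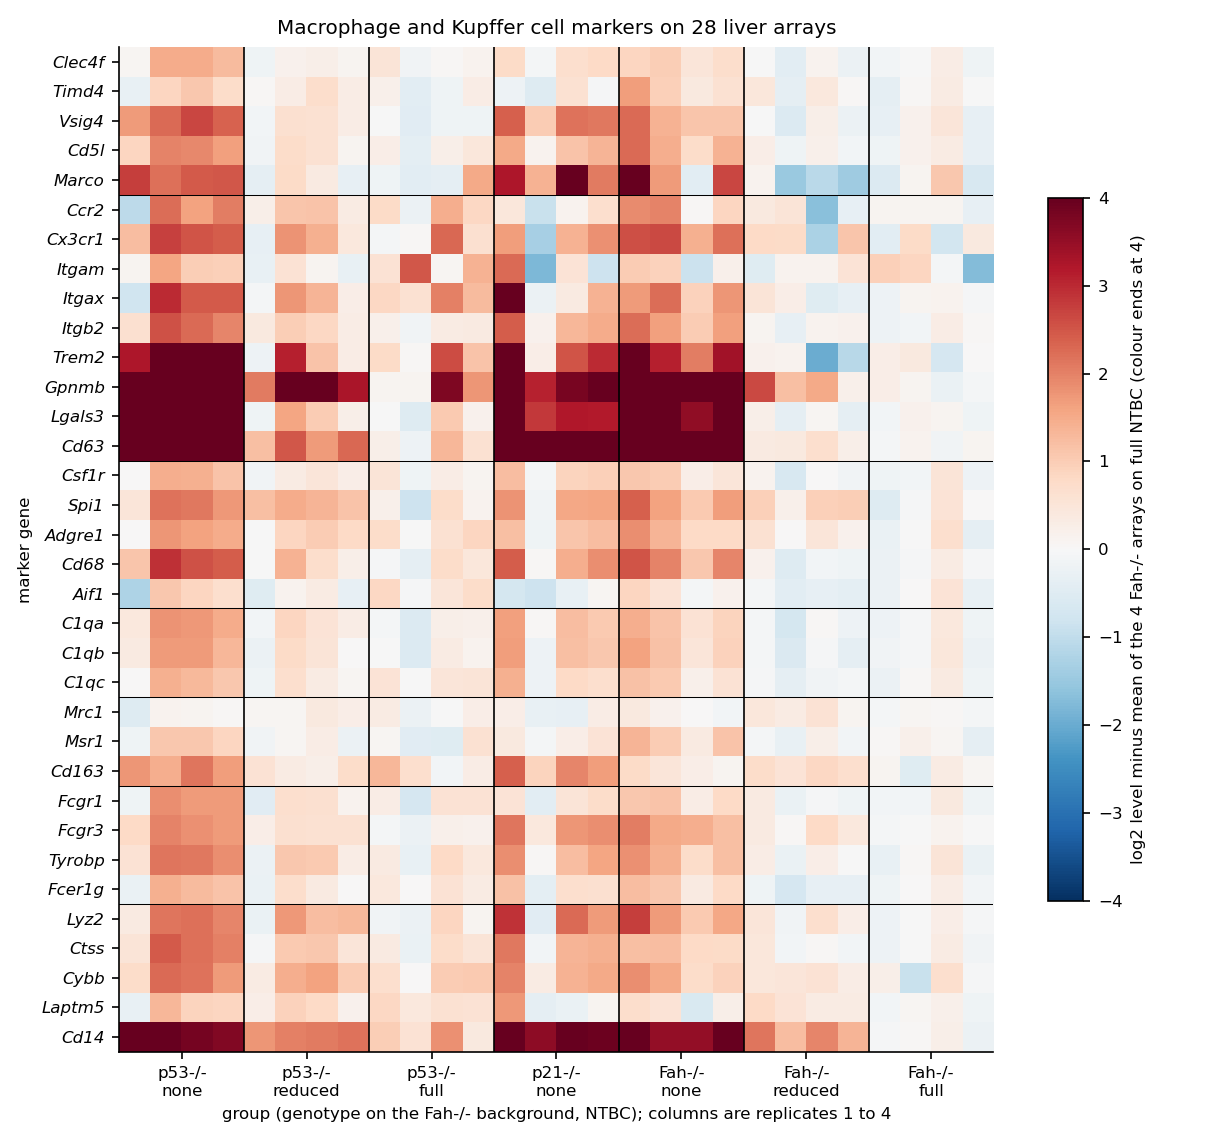
Levels of the 34 markers on the 28 arrays, as the difference in log2 level from the mean of the 4 Fah-/- arrays on full NTBC. Columns are arrays in 7 groups of 4, rows are markers in the 7 roles named in the text. Most markers were above that mean on arrays with no NTBC and near it on the others, and in Fah-/- p53-/- replicate 1 and Fah-/- p21-/- replicate 2 with no NTBC the columns are paler than their neighbours.

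The markers' promoters were looked at first for what the genes share in sequence. Windows from 250 bases before to 50 bases after the start were present for 26 of the 34 markers (RefSeq, GRCm38.p6). C1qa, Csf1r, Spi1, Adgre1, Itgb2, Msr1, Tyrobp and Cd14 had none. The letters GAGGAA, the core of the box bound by PU.1 (the lineage factor encoded by Spi1), stood on either strand in 16 of these 26 markers, against 28.3% of 32851 windows of the same length. TGANTCA, the site of AP-1, stood in 5 (Itgax, Trem2, Gpnmb, Cd68 and Cybb), against 7.81% of windows. TCATGTG, the M-box of MITF and its relatives, stood in 3 (C1qb, C1qc and Ctss), against 3.77%. CACGTG, the E-box core, stood in none of the 26, against 7.15%. The motifs can overlap in a window, and a match describes letters, not binding.

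The 4 windows printed below belong to a resident marker, Cd5l, and to the injury markers Trem2, Gpnmb and Cd63, which carried large changes on these arrays. All lie on the plus strand and are written 5′ to 3′. Capitals mark GAGGAA or its reverse complement TTCCTC, and TGANTCA. Cd5l (chr3:87357631-87357930) held 1 PU.1 box, Trem2 (chr17:48346151-48346450) 1 PU.1 box and 1 AP-1 site, Gpnmb (chr6:49036268-49036567) 1 AP-1 site and Cd63 (chr10:128909095-128909394) 2 PU.1 boxes. The windows of Clec4f and Lgals3, markers that also rose with no NTBC, held none of the motifs searched and are not printed.
Cd5l: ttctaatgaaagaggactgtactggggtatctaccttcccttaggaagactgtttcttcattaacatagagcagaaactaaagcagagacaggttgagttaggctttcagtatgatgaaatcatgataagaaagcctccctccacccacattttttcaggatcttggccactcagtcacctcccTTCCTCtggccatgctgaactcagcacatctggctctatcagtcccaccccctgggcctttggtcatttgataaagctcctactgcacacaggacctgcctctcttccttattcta
Trem2: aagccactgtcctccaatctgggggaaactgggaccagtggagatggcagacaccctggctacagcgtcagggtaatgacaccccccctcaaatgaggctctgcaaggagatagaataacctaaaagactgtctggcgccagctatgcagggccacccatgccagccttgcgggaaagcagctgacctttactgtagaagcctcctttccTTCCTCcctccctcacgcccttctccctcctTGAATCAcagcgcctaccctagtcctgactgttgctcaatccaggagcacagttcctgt
Gpnmb: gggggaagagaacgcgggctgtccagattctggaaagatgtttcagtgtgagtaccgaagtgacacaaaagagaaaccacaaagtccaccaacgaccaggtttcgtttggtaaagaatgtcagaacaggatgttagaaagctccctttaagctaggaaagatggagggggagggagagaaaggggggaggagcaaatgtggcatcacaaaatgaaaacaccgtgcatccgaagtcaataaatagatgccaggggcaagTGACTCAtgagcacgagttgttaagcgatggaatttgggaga
Cd63: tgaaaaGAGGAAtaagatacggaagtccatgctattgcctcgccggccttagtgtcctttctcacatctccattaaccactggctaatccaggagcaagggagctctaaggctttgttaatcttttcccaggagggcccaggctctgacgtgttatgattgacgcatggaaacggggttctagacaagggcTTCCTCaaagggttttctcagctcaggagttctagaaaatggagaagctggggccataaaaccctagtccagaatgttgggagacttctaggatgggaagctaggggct

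With no NTBC the markers were higher than on full NTBC in both genotypes, and none was called lower. In Fah-/- p53-/- livers 24 of 34 were called higher, where 29.6% of all genes were (40.1% were called lower and 69.7% in either direction), with a median change of 1.33 over the markers and -0.14 over all genes. In Fah-/- livers 27 of 34 were called higher, where 29.3% of all genes were (41.6% lower, 70.9% in either direction), with a median of 1.23 over the markers and -0.17 over all genes. The 22 markers called higher in both are 22 of the 24 and 22 of the 27. The share of all genes called higher in both is not given here, so this overlap is not read as a result about the markers. Cx3cr1, which is in both counts, passed the filter through the groups with no NTBC, and without Cx3cr1 and Itgam the counts were 23 of 32 in Fah-/- p53-/- and 26 of 32 in Fah-/- livers. Both counts still hold Gpnmb and Spi1, which passed the filter through no full-dose group. Without Fah-/- p53-/- replicate 1, the count in that genotype was 30 of 34, where 29.8% of all genes were called higher. Aif1, Ccr2, Itgam, Mrc1 and Laptm5 were called in neither genotype.

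All 4 arrays with no NTBC lay above all 4 on full NTBC for 14 markers in Fah-/- p53-/- livers, where 24.8% of all genes did, and for 24 markers in Fah-/- livers, where 27.5% did. No marker had all 4 arrays lower, where 35% of all genes did in Fah-/- p53-/- and 39.4% in Fah-/- livers.

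**Figure D2:**
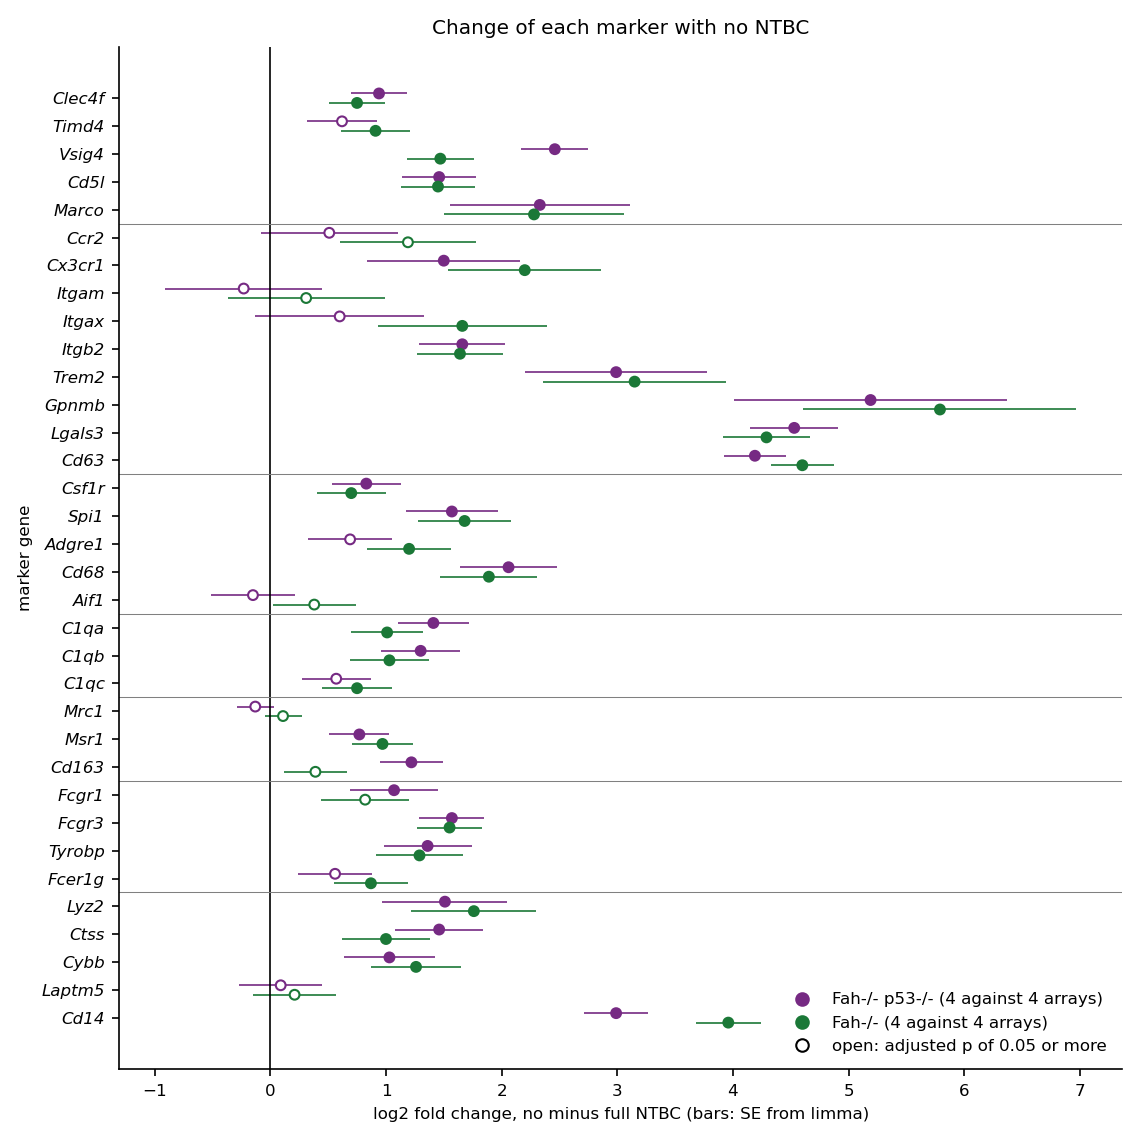
Log2 fold change of each marker, no minus full NTBC, in Fah-/- p53-/- livers (purple) and Fah-/- livers (green), with bars for the SE from limma and 4 arrays per group. Filled points passed an adjusted p of 0.05, open points did not. Cd63, Lgals3, Cd14 and Trem2 lie far to the right in both genotypes, Gpnmb is drawn against full-dose arrays of which only 1 was above background, and Itgam, Aif1 and Mrc1 lie near 0; Cx3cr1 and Spi1 fall below 0 with normexp background correction.

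Among resident Kupffer cell markers, 4 of 5 rose in Fah-/- p53-/- livers and 5 of 5 in Fah-/- livers. Clec4f, a lectin that in mice marks resident Kupffer cells, was at 3.56, 4.98, 4.97 and 4.75 on the Fah-/- p53-/- arrays with no NTBC, 3.31, 3.66, 3.72 and 3.59 on reduced NTBC and 4.02, 3.36, 3.53 and 3.62 on full NTBC. Fah-/- livers had Clec4f at 4.36, 4.47, 3.97 and 4.20 with no NTBC, 3.47, 3.08, 3.62 and 3.26 on reduced NTBC and 3.40, 3.47, 3.78 and 3.33 on full NTBC. The 4 Fah-/- arrays with no NTBC stood above all others of that genotype, and of the Fah-/- p53-/- arrays with no NTBC only replicate 1 overlapped with the full-dose arrays. The change from full NTBC was 0.94 ± 0.24 in Fah-/- p53-/- livers (adjusted p = 0.00156, limma) and 0.75 ± 0.24 in Fah-/- livers (adjusted p = 0.00826, limma).

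Cd5l, a secreted scavenger protein whose promoter is printed above, was at 5.62, 6.77, 6.70 and 6.42 on the Fah-/- p53-/- arrays with no NTBC, 4.64, 5.51, 5.38 and 4.88 on reduced NTBC and 5.03, 4.37, 5.02 and 5.24 on full NTBC. On Fah-/- arrays it was at 7.03, 6.23, 5.52 and 6.15 with no NTBC, 5.04, 4.6, 4.99 and 4.68 on reduced NTBC and 4.59, 4.95, 5.11 and 4.45 on full NTBC. Every array with no NTBC was above every array of its own genotype at the other doses. The changes from full NTBC were 1.46 ± 0.32 in Fah-/- p53-/- livers (adjusted p = 0.000252, limma) and 1.45 ± 0.32 in Fah-/- livers (adjusted p = 0.000265, limma).

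Vsig4, the complement receptor CRIg through which Kupffer cells take up opsonized bacteria, was at 1.67, 2.23, 2.64 and 2.31 on the Fah-/- p53-/- arrays with no NTBC, -0.15, 0.60, 0.55 and 0.26 on reduced NTBC and -0.06, -0.51, -0.23 and -0.21 on full NTBC. On Fah-/- arrays it was at 2.22, 1.34, 1.05 and 1.07 with no NTBC, -0.07, -0.60, 0.19 and -0.29 on reduced NTBC and -0.36, 0.12, 0.43 and -0.37 on full NTBC. Again the arrays with no NTBC were separate from both other doses. Vsig4 rose by 2.46 ± 0.29 in Fah-/- p53-/- livers (5.52-fold, adjusted p = 6.68e-08, limma) and by 1.47 ± 0.29 in Fah-/- livers (2.76-fold, adjusted p = 9.04e-05, limma). The difference between these rises was 1.0 ± 0.41 (adjusted p = 0.128, limma, 95% interval 0.16 to 1.84), which did not pass; it passed in the fit without the 3 arrays that stood apart (1.18 ± 0.35, adjusted p = 0.0303, limma) and in the fit without Fah-/- replicate 1 with no NTBC, and not in the other alternatives tried.

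Marco, a scavenger receptor for bacteria, was scattered. With no NTBC it was at 5.08, 4.53, 4.77 and 4.81 in Fah-/- p53-/- livers and at 7.51, 4.02, 1.90 and 5.0 in Fah-/- livers. On full NTBC it was at 2.16, 1.89, 1.98 and 3.85 in Fah-/- p53-/- livers and at 1.79, 2.45, 3.39 and 1.68 in Fah-/- livers. No and full NTBC did not overlap in Fah-/- p53-/- livers, whereas Fah-/- replicate 3 with no NTBC fell within the full-dose range. Marco rose by 2.33 ± 0.78 in Fah-/- p53-/- livers (adjusted p = 0.0109, limma) and by 2.28 ± 0.78 in Fah-/- livers (adjusted p = 0.0124, limma), and the call in Fah-/- livers was lost without replicate 1 with no NTBC and with these groups fitted alone (highest adjusted p = 0.0896, limma).

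Timd4, the phosphatidylserine receptor TIM-4 of long-lived resident macrophages, was at -1.20, -0.03, 0.19 and -0.15 on the Fah-/- p53-/- arrays with no NTBC and at -0.69, -1.31, -1.05 and -0.60 on full NTBC. Fah-/- livers had Timd4 at 0.79, 0.06, -0.50 and -0.27 with no NTBC and at -1.24, -0.84, -0.57 and -0.91 on full NTBC. No and full NTBC were separate in Fah-/- livers, and replicate 1 with no NTBC overlapped in Fah-/- p53-/- livers. The change was 0.62 ± 0.30 in Fah-/- p53-/- livers (adjusted p = 0.0683, limma), which did not pass, and 0.91 ± 0.30 in Fah-/- livers (adjusted p = 0.00918, limma), a call lost without Fah-/- replicate 1.

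Of the 9 markers of recruited and injury macrophages, 6 rose in Fah-/- p53-/- livers and 7 in Fah-/- livers, and the changes of Gpnmb, Cd63, Lgals3 and Trem2 were large. Gpnmb, a transmembrane glycoprotein of phagosomes, was at -2.57, 0.92, 0.37 and 1.07 on the Fah-/- p53-/- arrays with no NTBC, -4.6, -1.13, -2.67 and -3.42 on reduced NTBC and -6.57, -6.56, -2.94 and -4.89 on full NTBC, of which 1 was well above background. Fah-/- livers had Gpnmb at -0.36, -0.35, -1.71 and -1.12 with no NTBC, -4.02, -5.46, -5.16 and -6.48 on reduced NTBC (1 above background) and -6.42, -6.56, -6.94 and -6.76 on full NTBC (none above background). All arrays with no NTBC lay above all on full NTBC. The fitted change was 5.19 ± 1.18 in Fah-/- p53-/- livers (adjusted p = 0.000445, limma). In Fah-/- livers Gpnmb was at least 11.4-fold higher with no NTBC than the background bound on full NTBC (adjusted p = 0.000138, limma; 4 of 4 arrays), a bound taken, per array, as the higher of the gene's own signal and the dimmest signal well above background. Both calls were lost with normexp background correction (adjusted p = 0.127 in Fah-/- p53-/- and 0.101 in Fah-/- livers, limma), where the changes were 1.53 in Fah-/- p53-/- and 1.68 in Fah-/- livers. Wherever a change is given here or below as at least some fold, its adjusted p tests the measured signals and not the bound.

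Cd63, a lysosome membrane tetraspanin, was at 4.64, 4.82, 4.70 and 4.68 on the Fah-/- p53-/- arrays with no NTBC, 1.24, 2.51, 1.75 and 2.32 on reduced NTBC and 0.26, -0.16, 1.36 and 0.63 on full NTBC. On the Fah-/- arrays Cd63 was at 4.79, 4.65, 4.45 and 4.64 with no NTBC, 0.40, 0.42, 0.72 and 0.27 on reduced NTBC and -0.03, 0.16, -0.12 and 0.13 on full NTBC. Levels with no NTBC were nearly alike in both genotypes and apart from every other array. The rise was 18.2-fold in Fah-/- p53-/- livers (4.19 ± 0.27, adjusted p = 2.82e-12, limma) and 24.3-fold in Fah-/- livers (4.6 ± 0.27, adjusted p = 7.36e-13, limma).

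Lgals3, the galactose-binding lectin galectin-3, was at 4.28, 5.02, 4.97 and 5.19 on the Fah-/- p53-/- arrays with no NTBC, -0.02, 1.73, 1.19 and 0.39 on reduced NTBC and 0.16, -0.36, 1.20 and 0.33 on full NTBC. On the Fah-/- arrays Lgals3 was at 4.73, 4.70, 3.70 and 4.71 with no NTBC, 0.39, -0.20, 0.23 and -0.20 on reduced NTBC and 0.05, 0.33, 0.29 and 0.00 on full NTBC. Reduced and full NTBC overlapped, and no NTBC stood apart. Lgals3 rose 23.1-fold in Fah-/- p53-/- livers (4.53 ± 0.38, adjusted p = 3.47e-10, limma) and 19.6-fold in Fah-/- livers (4.29 ± 0.38, adjusted p = 9.51e-10, limma).

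Trem2, a lipid receptor that signals through Tyrobp, was at 1.0, 2.53, 2.0 and 2.01 on the Fah-/- p53-/- arrays with no NTBC and at -1.47, -2.19, 0.37 and -1.10 on full NTBC. The Fah-/- arrays had Trem2 at 1.88, 0.89, -0.19 and 1.12 with no NTBC and at -1.98, -1.83, -2.90 and -2.21 on full NTBC. No array overlapped between no and full NTBC within a genotype. Trem2 rose 7.93-fold in Fah-/- p53-/- livers (2.99 ± 0.79, adjusted p = 0.00172, limma) and 8.90-fold in Fah-/- livers (3.15 ± 0.79, adjusted p = 0.00106, limma).

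Of the 5 other markers of recruited cells, the integrin subunit Itgb2 rose in Fah-/- p53-/- livers by 1.66 ± 0.37 and in Fah-/- livers by 1.64 ± 0.37 (adjusted p = 0.000339 and 0.000385, limma). The fractalkine receptor Cx3cr1 passed the filter on dim probes only through groups with no NTBC, so its calls are not independent of that choice. It was not well above background on any Fah-/- array on full NTBC. With no NTBC it was at least 2.41-fold higher there (adjusted p = 0.00509, limma), but its direction turned with normexp background correction (-0.09). In Fah-/- p53-/- livers Cx3cr1 changed by 1.5 ± 0.66 (adjusted p = 0.0486, limma), and there too normexp turned the sign (-0.40); this call was also lost without any 1 of Fah-/- p53-/- replicates 2, 3 and 4 with no NTBC or 1, 2 and 4 on full NTBC, and with no filter on dim probes, the replicate block or slide as a random block. Itgax, the integrin CD11c, was called in Fah-/- livers (1.66 ± 0.73, adjusted p = 0.0456, limma) and not in Fah-/- p53-/- livers (0.60 ± 0.73, adjusted p = 0.472, limma). On the Fah-/- p53-/- arrays with no NTBC Itgax was at -3.03, 0.77, 0.24 and 0.23, so that replicate 1 lay below every full-dose array of its genotype (-1.41, -1.61, -0.20 and -0.95). The Itgax call in Fah-/- livers was lost without any 1 of replicates 1, 2 and 4 with no NTBC or of the 4 on full NTBC, and with normexp, quantile normalization, the deposited value table, the replicate block or slide as a random block (highest adjusted p over all alternatives 0.125, limma).

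The monocyte chemokine receptor Ccr2 and the integrin CD11b, Itgam, were close to background, and neither was called. Ccr2 averaged -2.80 ± 1.52 (SD, n = 4) with no NTBC and -3.31 ± 0.69 on full NTBC in Fah-/- p53-/- livers, and -2.82 ± 0.92 with no NTBC and -4.01 ± 0.23 on full NTBC in Fah-/- livers. The 95% interval of the Ccr2 change was -0.70 to 1.73 in Fah-/- p53-/- livers and -0.03 to 2.41 in Fah-/- livers. For Itgam it was -1.64 to 1.18 in Fah-/- p53-/- livers and -1.10 to 1.72 in Fah-/- livers.

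**Figure D3:**
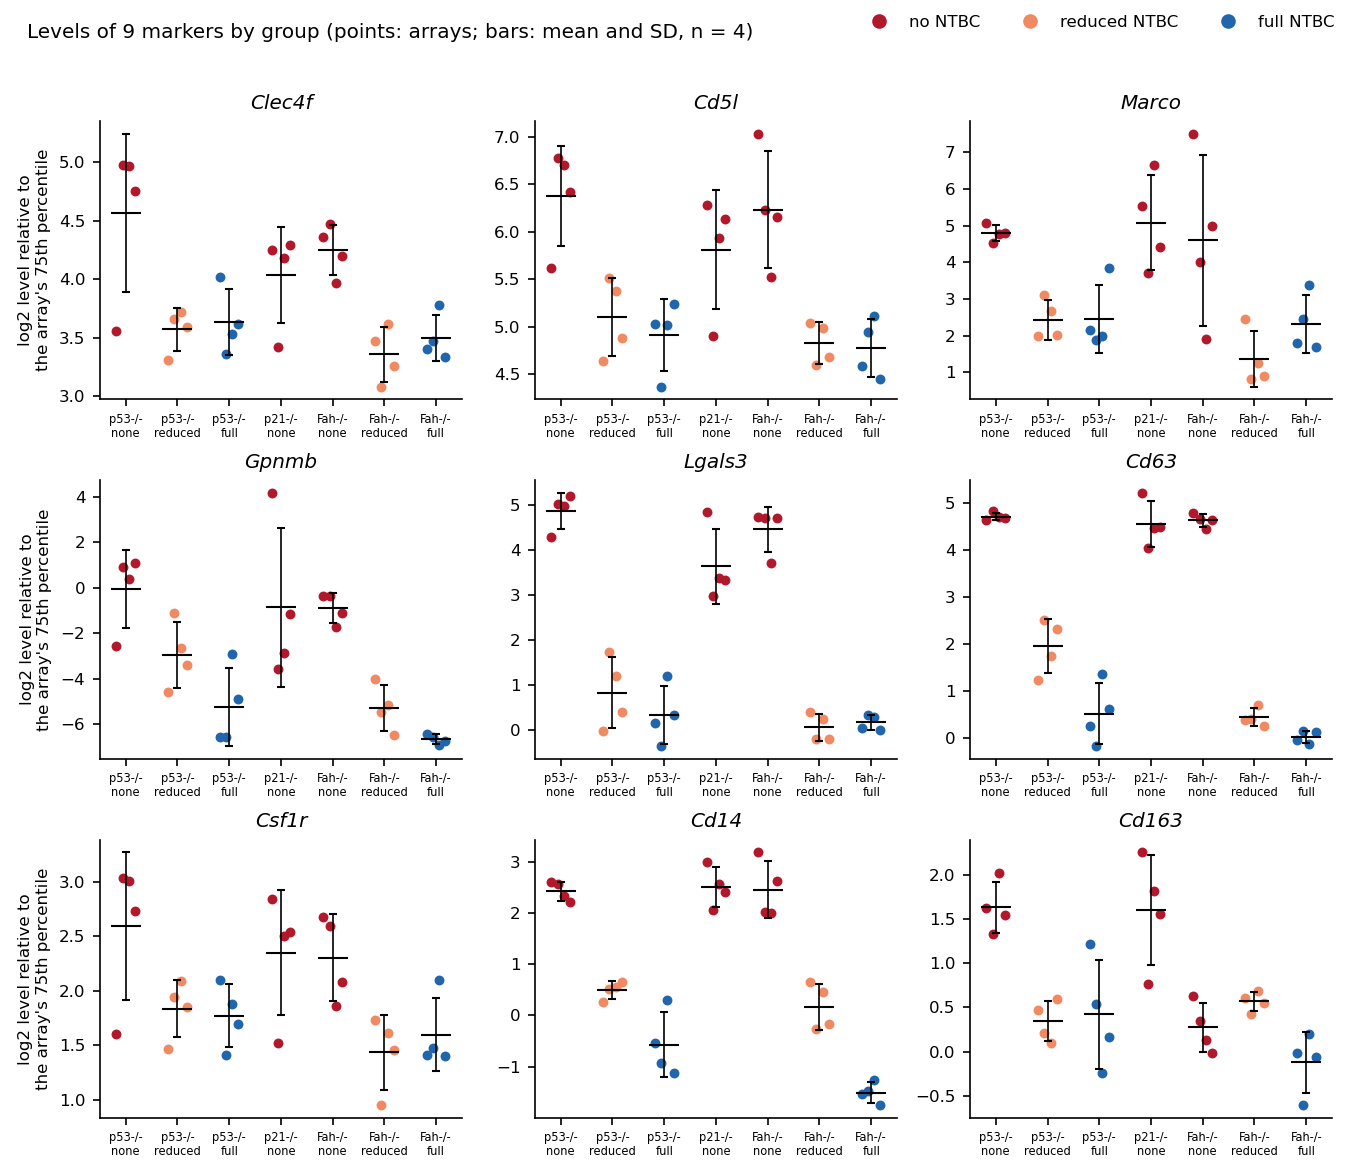
Log2 levels of 9 markers, with the 75th percentile of each array at 0, in the 7 groups. Points are arrays coloured by dose (no, reduced and full NTBC) and bars are the mean ± SD of 4 arrays. Cd63 and Lgals3 with no NTBC lie between 2.98 and 5.21 in all 3 genotypes, and Cd163 is higher in the p53-/- and p21-/- groups with no NTBC than in the Fah-/- group with no NTBC.

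Of 5 macrophage lineage markers, 3 rose in Fah-/- p53-/- livers and 4 in Fah-/- livers. Cd68, a lysosomal glycoprotein, was at 0.32, 2.14, 1.78 and 1.65 on the Fah-/- p53-/- arrays with no NTBC and at -0.84, -1.15, -0.03 and -0.33 on full NTBC. On Fah-/- arrays it was at 1.73, 1.22, 0.31 and 1.17 with no NTBC and at -1.01, -0.81, -0.45 and -0.84 on full NTBC. No and full NTBC did not overlap, though Fah-/- p53-/- replicate 2 on reduced NTBC (0.61) lay above replicate 1 with no NTBC. Against full NTBC, Cd68 rose 4.17-fold in Fah-/- p53-/- livers (2.06 ± 0.42, adjusted p = 0.000155, limma) and 3.69-fold in Fah-/- livers (1.89 ± 0.42, adjusted p = 0.000397, limma).

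Csf1r, the receptor for the growth factor on which macrophages depend, rose less, by 0.83 ± 0.30 in Fah-/- p53-/- livers (adjusted p = 0.0163, limma) and by 0.70 ± 0.30 in Fah-/- livers (adjusted p = 0.0377, limma). Its groups overlapped in both genotypes: with no NTBC it was at 1.60, 3.04, 3.01 and 2.73 in Fah-/- p53-/- and 2.68, 2.60, 1.86 and 2.08 in Fah-/- livers, and on full NTBC at 2.10, 1.41, 1.88 and 1.70 in Fah-/- p53-/- and 1.41, 1.48, 2.10 and 1.40 in Fah-/- livers. The probes of Csf1r disagreed. A second probe moved the same way (1.31 in Fah-/- p53-/- and 0.97 in Fah-/- livers), while another one moved by -0.76 in Fah-/- p53-/- livers (adjusted p = 0.0354 over all probes, limma) and by -0.41 in Fah-/- livers, and with the mean of the probes the gene was called in neither. The Csf1r calls were also lost without Fah-/- p53-/- replicate 2 or 3 with no NTBC or 2 on full NTBC, with the Fah-/- p53-/- groups fitted alone, and without Fah-/- replicate 1 or 2 with no NTBC or 1, 2 or 4 on full NTBC.

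Spi1, the gene of PU.1, was not above background on any array on full NTBC and was at least 1.81-fold higher with no NTBC in Fah-/- p53-/- livers (adjusted p = 0.00142, limma) and at least 1.73-fold in Fah-/- livers (adjusted p = 0.000765, limma), but its arrays overlapped in Fah-/- p53-/- livers, and its sign turned with normexp (-0.56 in Fah-/- p53-/- and -0.30 in Fah-/- livers). Adgre1, the F4/80 antigen, rose in Fah-/- livers by 1.20 ± 0.36 (adjusted p = 0.00542, limma) and had a change of 0.69 ± 0.36 in Fah-/- p53-/- livers (adjusted p = 0.0975, limma). Aif1, the actin-binding protein Iba1, was called in neither genotype (-0.15 ± 0.36 in Fah-/- p53-/- and 0.38 ± 0.36 in Fah-/- livers).

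The C1q chains, which opsonize dying cells and are made by macrophages, were called higher for 2 of 3 in Fah-/- p53-/- and 3 of 3 in Fah-/- livers. C1qa rose by 1.41 ± 0.31 in Fah-/- p53-/- and by 1.01 ± 0.31 in Fah-/- livers, and C1qb by 1.30 ± 0.34 in Fah-/- p53-/- and by 1.03 ± 0.34 in Fah-/- livers (adjusted p from 0.00036 to 0.0101, limma). C1qc had a change of 0.57 ± 0.30 in Fah-/- p53-/- livers (adjusted p = 0.0938, limma) and rose by 0.75 ± 0.30 in Fah-/- livers (adjusted p = 0.0276, limma), a call lost without Fah-/- replicate 1 or 2 with no NTBC or 1 or 4 on full NTBC.

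The scavenger receptors split. Msr1, which takes up modified lipoproteins, rose by 0.77 ± 0.26 in Fah-/- p53-/- livers (adjusted p = 0.0116, limma) and by 0.97 ± 0.26 in Fah-/- livers (adjusted p = 0.0022, limma). The Msr1 call in Fah-/- p53-/- livers was lost with these groups fitted alone (adjusted p = 0.0812, limma) and with normexp (0.26, adjusted p = 0.253, limma). Mrc1, the mannose receptor, which liver endothelial cells also make, was called in neither, and its 95% interval was narrow: -0.47 to 0.21 in Fah-/- p53-/- and -0.23 to 0.45 in Fah-/- livers. Cd163, the receptor for haptoglobin-bound hemoglobin, rose in Fah-/- p53-/- livers (1.22 ± 0.27, adjusted p = 0.000387, limma) and was not called in Fah-/- livers (0.39 ± 0.27, adjusted p = 0.2, limma). The difference between those changes, 0.82 ± 0.39, did not pass (adjusted p = 0.192, limma).

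Among Fc receptors and adaptors, Fcgr3 rose in both genotypes, by 1.57 ± 0.28 in Fah-/- p53-/- livers and 1.55 ± 0.28 in Fah-/- livers (adjusted p = 2.62e-05 and 2.99e-05, limma), and so did Tyrobp, the adaptor DAP12, by 1.36 ± 0.38 in Fah-/- p53-/- and by 1.29 ± 0.38 in Fah-/- livers (adjusted p = 0.00261 and 0.00393, limma). The high-affinity IgG receptor Fcgr1 was called in Fah-/- p53-/- livers (1.07 ± 0.38, adjusted p = 0.0149, limma) and just missed in Fah-/- livers (0.82 ± 0.38, adjusted p = 0.0546, limma). Fcer1g, the common Fc receptor gamma chain, was the reverse (0.56 ± 0.32, adjusted p = 0.12, limma, in Fah-/- p53-/- and 0.87 ± 0.32, adjusted p = 0.018, limma, in Fah-/- livers). The Fcgr1 call was lost without Fah-/- p53-/- replicate 2 or 4 with no NTBC or 2 on full NTBC and with these groups fitted alone, and the Fcer1g call without Fah-/- replicate 1 with no NTBC (adjusted p = 0.0581, limma).

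Cd14, the co-receptor for bacterial lipopolysaccharide, which hepatocytes can also make, led its group. It was at 2.60, 2.56, 2.32 and 2.21 on the Fah-/- p53-/- arrays with no NTBC, 0.26, 0.52, 0.56 and 0.66 on reduced NTBC and -0.53, -0.92, 0.31 and -1.13 on full NTBC. The Fah-/- arrays had Cd14 at 3.18, 2.02, 2.0 and 2.62 with no NTBC, 0.65, -0.27, 0.46 and -0.16 on reduced NTBC and -1.54, -1.47, -1.26 and -1.75 on full NTBC. The 3 doses did not overlap in Fah-/- livers, and in Fah-/- p53-/- livers 1 full-dose array reached the reduced-dose range. Cd14 rose 7.94-fold with no against full NTBC in Fah-/- p53-/- livers (2.99 ± 0.28, adjusted p = 1.84e-09, limma) and 15.6-fold in Fah-/- livers (3.96 ± 0.28, adjusted p = 2e-11, limma).

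Lysozyme (Lyz2), cathepsin S (Ctss) and the NADPH oxidase subunit Cybb were called higher in both genotypes. Their changes were 1.51 ± 0.54, 1.46 ± 0.38 and 1.03 ± 0.39 in Fah-/- p53-/- livers, and 1.76 ± 0.54, 1.0 ± 0.38 and 1.26 ± 0.39 in Fah-/- livers (adjusted p from 0.00179 to 0.0246, limma). In Fah-/- p53-/- livers the Lyz2 call was lost without replicate 3 with no NTBC and with normexp (highest adjusted p = 0.0694, limma), and the Cybb call without replicate 2 or 3 with no NTBC or 2 on full NTBC; in Fah-/- livers the Ctss call was lost without replicate 1 or 2 with no NTBC or 1 or 4 on full NTBC. The Cybb call was also lost in Fah-/- p53-/- livers with the mean of the gene's probes (0.46, adjusted p = 0.243, limma) and with normexp (0.15, adjusted p = 0.639, limma), and in Fah-/- livers with normexp (0.49, adjusted p = 0.131, limma). Laptm5, a lysosomal protein of blood cells, was called in neither (0.09 ± 0.36 in Fah-/- p53-/- and 0.21 ± 0.36 in Fah-/- livers).

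On reduced NTBC few markers differed from full NTBC. In Fah-/- p53-/- livers 3 of 34 were called higher, where 20.3% of all genes were (19.6% lower, 39.8% in either direction): Cd14 by 1.07 ± 0.28 (adjusted p = 0.00406, limma), Cd63 by 1.43 ± 0.27 (adjusted p = 0.000175, limma) and Spi1 by 1.24 ± 0.40 (adjusted p = 0.0171, limma), which was at least 1.44-fold higher than the background bound and for which normexp turned the sign and gave a call lower (-0.97, adjusted p = 0.0267, limma); the Spi1 call was also lost without Fah-/- p53-/- replicate 2 on full NTBC. In Fah-/- livers 2 of 34 were called higher, where 17.4% of all genes were (22.3% lower, 39.8% in either direction): Cd14 by 1.67 ± 0.28 (adjusted p = 5.72e-05, limma) and Cd163 by 0.69 ± 0.27 (adjusted p = 0.0473, limma). None was called lower in either genotype. The median change was 0.16 over the markers in Fah-/- p53-/- and 0.04 in Fah-/- livers.

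No resident Kupffer cell marker was called on reduced NTBC. The changes of these 5 from full NTBC lay between -0.06 and 0.57 in Fah-/- p53-/- livers and between -0.96 and 0.15 in Fah-/- livers. The interval for Clec4f was -0.57 to 0.44 in Fah-/- p53-/- and -0.64 to 0.36 in Fah-/- livers. The Cd163 call in Fah-/- livers was lost under 12 of the alternatives tried (highest adjusted p = 0.201, limma), 7 of which left out 1 array, namely Fah-/- replicate 1, 2 or 4 on full NTBC or any of the 4 on reduced NTBC. On the arrays Cd163 was at 0.61, 0.43, 0.69 and 0.55 on reduced NTBC and at -0.02, -0.61, 0.20 and -0.06 on full NTBC, so the groups were separate.

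Against reduced NTBC, no NTBC gave higher levels of 21 of 34 markers in Fah-/- p53-/- livers, where 23.2% of all genes were called higher (38.1% lower, 61.3% in either direction), and of 26 of 34 in Fah-/- livers, where 26.1% were (38.1% lower, 64.3% in either direction). None was called lower. Without Fah-/- p53-/- replicate 1 with no NTBC the count in that genotype was 28, where 24.3% of all genes were called higher, and without Fah-/- p53-/- replicate 1 on reduced NTBC it was 13, where 20.9% were. Not called were Itgam, Spi1, Aif1, Mrc1, Cybb and Laptm5 in both genotypes, Timd4, Ccr2, Cx3cr1, Itgax, Adgre1, Fcer1g and Lyz2 in Fah-/- p53-/- livers, and Cd163 and Fcgr1 in Fah-/- livers. Ccr2 was called in Fah-/- livers (1.47 ± 0.59, adjusted p = 0.0335, limma), with overlapping arrays and 2 of 4 reduced-dose arrays above background, and the call was lost with normexp (0.13, adjusted p = 0.782, limma) and without replicate 1 or 2 with no NTBC or 3 or 4 on reduced NTBC. Large steps were those of Lgals3 (4.04 ± 0.38 in Fah-/- p53-/- and 4.40 ± 0.38 in Fah-/- livers), Cd63 (2.75 ± 0.27 in Fah-/- p53-/- and 4.18 ± 0.27 in Fah-/- livers) and Trem2 (3.03 ± 0.79 in Fah-/- p53-/- and 3.85 ± 0.79 in Fah-/- livers). These comparisons share the arrays with no NTBC with those against full NTBC and are not separate evidence.

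Between genotypes at 1 dose, 1 marker was called in each comparison. On full NTBC it was Cd14, at -0.53, -0.92, 0.31 and -1.13 in Fah-/- p53-/- livers and -1.54, -1.47, -1.26 and -1.75 in Fah-/- livers, higher on all 4 arrays (0.94 ± 0.28, adjusted p = 0.0264, limma). Of all genes 13.9% were called there, and 6.34% higher. This Cd14 call was lost without Fah-/- replicate 1, 2 or 4, without Fah-/- p53-/- replicate 1 or 3, with normexp, with the deposited value table and with these groups fitted alone (highest adjusted p = 0.117, limma).

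On reduced NTBC the marker was Cd63, higher on all 4 Fah-/- p53-/- arrays than on the Fah-/- arrays (1.5 ± 0.27, adjusted p = 0.000527, limma), where 15.6% of all genes were called and 9.84% called higher. Cd63 was also called in each fit that left out 1 of these 8 arrays. At these 2 doses genotype and slide cannot be told apart. The difference between genotypes in the Cd63 response to reduced NTBC, 1.02 ± 0.38, did not pass (adjusted p = 0.0844, limma), though it did in the fits without Fah-/- p53-/- replicate 1 on reduced NTBC or replicate 3 on full NTBC.

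With no NTBC the marker was Cd163 for both p53 loss and p21 loss. Cd163 was at 1.63, 1.33, 2.03 and 1.55 in Fah-/- p53-/- livers, 2.26, 0.77, 1.82 and 1.56 in Fah-/- p21-/- livers and 0.63, 0.35, 0.13 and -0.02 in Fah-/- livers. Every p53-/- and p21-/- array lay above every Fah-/- array. The difference was 1.36 ± 0.27 for Fah-/- p53-/- against Fah-/- (adjusted p = 0.00191, limma), where 14.3% of all genes were called and 7.65% called higher, and 1.33 ± 0.27 for Fah-/- p21-/- against Fah-/- (adjusted p = 0.00439, limma), where 7.53% were called and 3.94% called higher. The 2 comparisons share the Fah-/- arrays.

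Slide and sex move with these groups. With slide as a fixed block over the 12 arrays with no NTBC, the Cd163 difference was 1.40 for p53 loss (adjusted p = 0.0693, limma) and 1.54 for p21 loss (adjusted p = 0.0975, limma). Within the 1 slide that holds both groups, 2 arrays against 2, it was 1.30 for p53 loss (adjusted p = 0.29, limma) and 1.64 for p21 loss (adjusted p = 0.299, limma). Neither difference was called in either of these fits. Replicates 3 and 4 of Fah-/- p21-/- showed Ddx3y, as did the Fah-/- samples (replicate 2 of those showed Xist as well), and were at 1.82 and 1.56. Replicates 1 and 2 of Fah-/- p21-/-, which showed Xist without Ddx3y, were at 2.26 and 0.77. The part of sex in the difference for p21 loss was not tested. All 4 Fah-/- p53-/- samples with no NTBC showed Xist without Ddx3y, so in that comparison sex and genotype cannot be told apart.

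Without the 3 arrays that stood apart, 6 markers were called higher in Fah-/- p53-/- than in Fah-/- livers with no NTBC: Cd163 (1.37 ± 0.26), Ctss (1.23 ± 0.25), Vsig4 (0.97 ± 0.26), Fcgr1 (0.93 ± 0.29), Laptm5 (0.81 ± 0.24) and Clec4f (0.65 ± 0.16), with adjusted p from 0.000942 to 0.0291 (limma). In that fit 20% of all genes were called in either direction. The share called higher in that fit is not given here, and the count of 6 of 34 is not read as a result about the markers. Leaving out Fah-/- p53-/- replicate 1 alone gave 5 of these, without Laptm5, where 8.55% of all genes were called higher, and leaving out Fah-/- replicate 1 gave Cd163 and Vsig4. For p21 loss, Cd163 was called in the fit without the 3 arrays as well (1.42 ± 0.29, adjusted p = 0.00543, limma), where 5.5% of all genes were called. For p21 loss Lgals3 was also called, lower, without Fah-/- p21-/- replicate 1, Timd4, lower, without Fah-/- p21-/- replicate 3, and Timd4 and Msr1, both lower, without Fah-/- replicate 3. For the fits without Fah-/- replicate 1 or 3, or Fah-/- p21-/- replicate 1 or 3, no share of all genes is given. Those calls only describe how the outcome moved with single arrays.

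Between Fah-/- p53-/- and Fah-/- p21-/- livers with no NTBC, Lgals3 was called, where 11% of all genes were and 5.04% called higher. It was at 4.28, 5.02, 4.97 and 5.19 in Fah-/- p53-/- and 4.85, 2.98, 3.37 and 3.33 in Fah-/- p21-/- livers, with 1 array of Fah-/- p21-/- inside the other group's range (1.23 ± 0.38, adjusted p = 0.0398, limma). The call was lost without any 1 of Fah-/- p53-/- replicates 2, 3 and 4 or Fah-/- p21-/- replicates 2, 3 and 4, and within the slide that holds both groups the difference was 0.73 (adjusted p = 0.705, limma). Without Fah-/- p53-/- replicate 1 as many as 8 markers were called higher, Clec4f and Timd4 among them, where 8.99% of all genes were called higher, and 7 without the 3 arrays that stood apart, where 13.3% of all genes were called in either direction. The share called higher in the fit without the 3 arrays is not given here.

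The difference between genotypes in the response was tested for every marker. For the response to no NTBC 0 of 34 were called, where 9.12% of all genes were, and 3 had an unadjusted p under 0.05: Vsig4 and Cd163, with the values above, and Cd14 (-0.97 ± 0.40, adjusted p = 0.127, limma). For the response to reduced NTBC 0 of 34 were called, where 10.4% of all genes were, and Cd63 alone had an unadjusted p under 0.05. The intervals are wide for dim genes, as for Gpnmb (-4.05 to 2.85 for no NTBC), and narrower for Clec4f (-0.53 to 0.89).

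Fah-/- p21-/- livers were sampled with no NTBC only. Over the 34 markers the median difference from Fah-/- livers was -0.19. Gpnmb was at 4.16, -3.58, -2.87 and -1.18 on the 4 Fah-/- p21-/- arrays and at -0.36, -0.35, -1.71 and -1.12 on the Fah-/- arrays, so replicate 1 was above and replicates 2 and 3 below all Fah-/- arrays. Timd4 was lower without passing (-0.94 ± 0.30, adjusted p = 0.0533, limma), at -1.09, -1.42, -0.27 and -0.93 against 0.79, 0.06, -0.50 and -0.27 in Fah-/- livers.

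For the list counts with no against full NTBC below, the shares of all genes are these. In Fah-/- p53-/- livers 29.6% were called higher and 40.1% lower, and in Fah-/- livers 29.3% higher and 41.6% lower. Ccl12, F13a1, Cldn4, Eomes, Ltf, Cd80 and Ptgs2 passed the filter on dim probes only through groups with no NTBC. Counts of risen genes that hold them are not independent of that choice. Ccl12, Cldn4 and Eomes are counted as risen in both genotypes, Ltf in Fah-/- p53-/- livers and Ptgs2 in Fah-/- livers. F13a1 is counted as risen in Fah-/- livers. In a list of 15 macrophage growth factors, monocyte chemokines and receptors, 13 were measured. Of these, 7 rose and 2 fell in Fah-/- p53-/- livers with no against full NTBC (median 1.29), and 9 rose and 0 fell in Fah-/- livers (median 1.72). Csf2rb, the shared receptor chain for GM-CSF, rose by 2.21 ± 0.29 in Fah-/- p53-/- livers, and Ccl2, the ligand of Ccr2, by 2.87 ± 0.69 in Fah-/- livers (adjusted p = 0.00072, limma). Ccl12 and Ccl3, also chemokines, were not above background on any full-dose array of the genotype given here. With no NTBC Ccl12 was at least 2.23-fold higher in Fah-/- p53-/- livers (3 of 4 arrays above background, adjusted p = 0.00412, limma), and Ccl3 at least 3.23-fold in Fah-/- livers (4 of 4 arrays, adjusted p = 0.000145, limma).

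Of 14 Kupffer cell regulators and further Kupffer genes, 5 rose and 5 fell in Fah-/- p53-/- livers, and 7 rose and 5 fell in Fah-/- livers. Nr1h3, the oxysterol receptor LXR alpha, which hepatocytes also make, fell by 1.90 in Fah-/- p53-/- and fell by 1.45 in Fah-/- livers. Cd38, an enzyme that consumes NAD, rose by 2.03 ± 0.21 in Fah-/- p53-/- and by 2.04 ± 0.21 in Fah-/- livers.

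Of 13 measured genes of lysosomes and lipid-handling macrophages, 6 rose and 3 fell in Fah-/- p53-/- livers and 6 rose and 2 fell in Fah-/- livers. Cd9, a tetraspanin, rose by 3.15 ± 0.41 in Fah-/- p53-/- and by 3.22 ± 0.41 in Fah-/- livers, and Lpl, lipoprotein lipase, by 3.00 ± 0.50 in Fah-/- p53-/- and by 2.31 ± 0.50 in Fah-/- livers. Apoe, which hepatocytes make in bulk, fell by 1.73 in Fah-/- p53-/- and fell by 1.69 in Fah-/- livers. Of 8 measured genes of blood monocytes, 3 rose in Fah-/- p53-/- and 5 in Fah-/- livers, led by Chil3 (3.15 ± 0.74 in Fah-/- p53-/- and 3.12 ± 0.74 in Fah-/- livers).

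Markers of other cells moved as well, and their part in the marker changes was not tested. Of 10 pan-leukocyte genes, 5 rose in Fah-/- p53-/- and 8 in Fah-/- livers with no against full NTBC, and 0 fell. Their summed level, as multiples of the array's 75th percentile and a sum in which bright probes weigh most, was 15.8 to 46.1 with no NTBC and 18.7 to 25.7 on full NTBC in Fah-/- p53-/- livers, and 26.2 to 39.3 with no NTBC and 19.5 to 23.9 on full NTBC in Fah-/- livers.

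Of 7 measured cholangiocyte genes, 4 rose in Fah-/- p53-/- and 5 in Fah-/- livers and 0 fell. Their summed level was 7.19 to 23.2 with no NTBC and 5.12 to 8.98 on full NTBC in Fah-/- p53-/- livers, and 9.26 to 21 with no NTBC and 5.13 to 8.01 on full NTBC in Fah-/- livers. Cftr was not above background on any array. Of 10 measured hepatocyte genes, 9 fell in Fah-/- p53-/- and 10 in Fah-/- livers. Their sum was 664 to 708 with no NTBC and 2500 to 2720 on full NTBC in Fah-/- p53-/- livers, and 652 to 804 with no NTBC and 2450 to 2880 on full NTBC in Fah-/- livers.

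Of 9 measured T cell genes, 0 rose and 7 fell in Fah-/- p53-/- livers, and 1 rose and 3 fell in Fah-/- livers. Of 7 measured B and plasma cell genes, 0 rose and 5 fell in Fah-/- p53-/- livers, and 0 rose and 2 fell in Fah-/- livers. Of 6 measured NK cell genes, 1 rose and 2 fell in Fah-/- p53-/- livers (median -0.69), and 3 rose and 0 fell in Fah-/- livers (median 0.92). In Fah-/- p53-/- livers the 1 that rose was Eomes. Pax5 and Blk were not above background on any array. Of 8 measured neutrophil genes, 2 rose in Fah-/- p53-/- and 1 in Fah-/- livers, with Lcn2, also made by injured hepatocytes, in both.

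**Figure D4:**
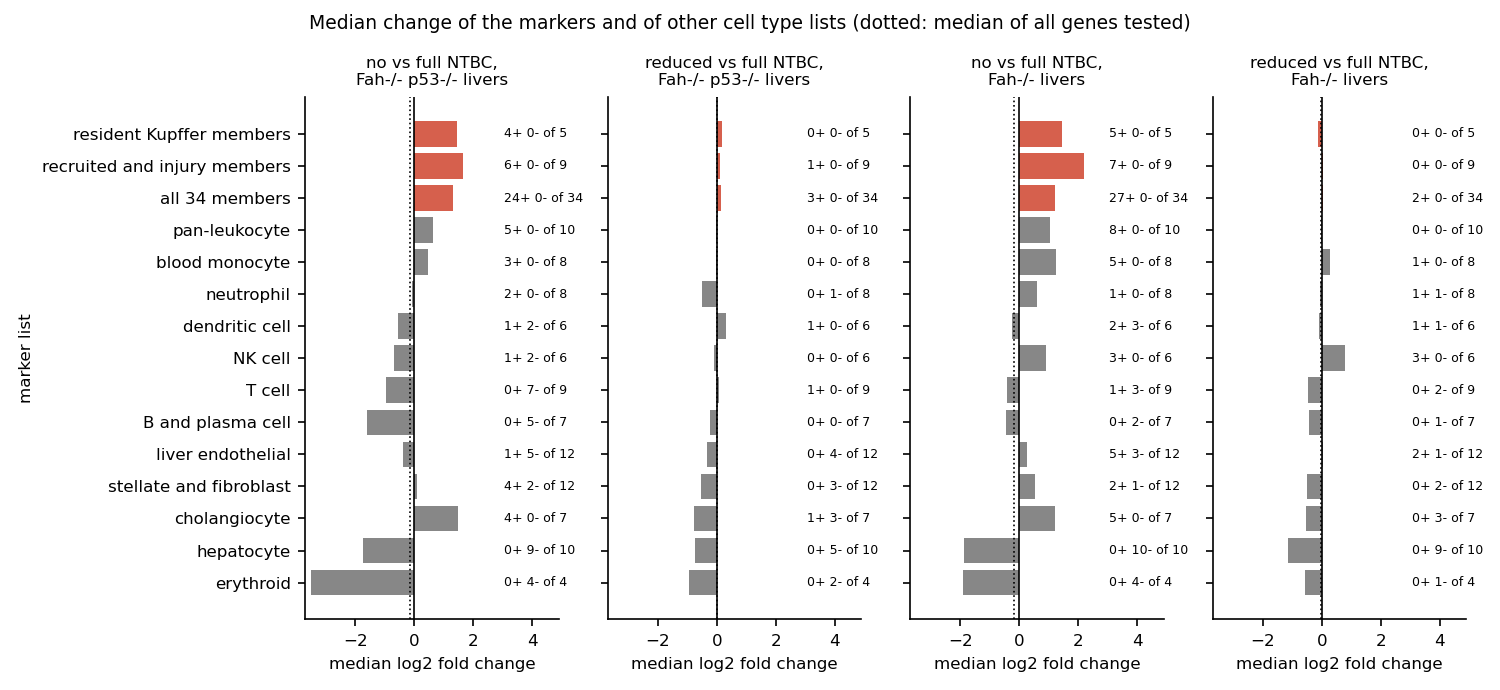
Median log2 fold change of the resident, the recruited and injury and all 34 markers (red) and of 12 other lists, blood monocytes among them (grey), in 4 comparisons with full NTBC. The text gives genes called higher (+) and lower (-) of those measured, and the dotted line is the median of all genes tested. With no NTBC the markers, pan-leukocyte and cholangiocyte lists lie to the right in both genotypes and the hepatocyte and erythroid lists to the left, and on reduced NTBC the marker bars are near 0.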

How the data were processed

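RNA of 28 liver samples was measured on 1-colour Agilent arrays, 4 per group in 7 groups taken from the labels. The deposited scanner files give spot intensity, extracted with Feature Extraction 10.7.3.1 per the file headers (10.5 per the submitters' processing notes); probes were annotated on mm9 per the file headers. The deposited value table holds log2 values of unstated centring, used as an alternative.

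Of 45018 spots, 1639 control spots were left out. Processed signals were averaged per probe, set against each array's 75th percentile (251.8 to 578.1) and taken to log2. Of 41174 probes, 27509 were kept because the deposited flags put them well above background throughout some group, on 4 of 4 arrays, and a gene is given by its brightest kept probe. On single arrays 54.8% to 68.5% of probes were well above background, and the number of arrays limits the precision. Group means were fitted with limma 3.58.1 (R 4.3.3; 21 residual degrees of freedom) over 20303 features, with Benjamini-Hochberg adjustment in each of 13 comparisons; a call is an adjusted p under 0.05. The fit was tested on simulated data before use.

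The rule was to name all 34 markers in every comparison; the text gives each marker's values for no against full NTBC, and counts with the called or uncalled markers elsewhere. Of other lists, counts, medians and up to 4 called genes with the largest change are given. Markers and lists were chosen with earlier results of these data known. Alternatives were normexp background correction (offset 50, on median signals), quantile normalization, the deposited table, no filter on dim probes, the mean of a gene's probes, the groups compared alone, a replicate block, slide as a block and each array left out. The fit without the 3 arrays farthest from their groups was added after seeing the data. Promoter windows are RefSeq's (GRCm38.p6); the arrays' own coordinates were not used. Figures were drawn with matplotlib 3.10.9.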

Additional observations from a re-analysis of the deposited data

Results flagged for a closer look

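In 23 of 238 sets of 4 arrays (34 markers in 7 groups), 1 array lay so far from its nearest neighbour that the gap took up more of the group's range than Dixon's 95% limit for 4 values, where chance gives about 1 in 20 sets (5%). The sets are not independent, since 1 array can stand apart in many markers.

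In Fah-/- p53-/- replicate 1 with no NTBC 9 markers were low: Clec4f at 3.56, with 4.75 on the nearest array, Itgax at -3.03 (nearest 0.23), Adgre1 at 1.15 (nearest 2.61), Aif1 at 0.78 (nearest 2.70), Mrc1 at 0.40 (nearest 0.95), Fcgr1 at 0.46 (nearest 2.34), Tyrobp at 2.65 (nearest 3.93), Fcer1g at 2.11 (nearest 3.52) and Lyz2 at -0.96 (nearest 0.61). In Fah-/- p21-/- replicate 2 with no NTBC 4 markers were low: Clec4f at 3.42 (nearest 4.18), Cx3cr1 at -6.66 (nearest -3.94), Spi1 at -5.40 (nearest -3.72) and Adgre1 at 0.95 (nearest 2.22).

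The remaining ones were spread over arrays. On reduced NTBC, Fcgr3 was low at -0.90 in Fah-/- p53-/- replicate 1, Cx3cr1 was low at -6.58 in Fah-/- replicate 3, and Itgb2 at -1.82 and Spi1 at -5.07 were low in Fah-/- replicate 2. On full NTBC, Marco was high at 3.85 in Fah-/- p53-/- replicate 4, C1qc was low at 2.94 in Fah-/- p53-/- replicate 2, Ccr2 was low at -4.35 in Fah-/- replicate 4, and Csf1r at 2.10 and Fcgr1 at 1.04 were high in Fah-/- replicate 3. With no NTBC, Lgals3 was low at 3.70 in Fah-/- replicate 3.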

How the results depend on the processing

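Of 108 marker calls, normexp left 82 in place, 21 lost the threshold and 5 changed sign, namely Cx3cr1 (-0.40 in Fah-/- p53-/- and -0.09 in Fah-/- livers) and Spi1 (-0.56 in Fah-/- p53-/- and -0.30 in Fah-/- livers) with no against full NTBC, and Spi1 with reduced against full NTBC in Fah-/- p53-/- livers (-0.97); both genes are dim, and the cause was not tested. With quantile normalization 2 calls were lost, and 6 with the deposited table. Normexp also moved the median of all genes to -0.41 in Fah-/- p53-/- and -0.40 in Fah-/- livers with no against full NTBC.

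Counts of called markers that moved included these, each with the share of all genes called in either direction in the same fit. Between Fah-/- p53-/- and Fah-/- livers with no NTBC they were 2 with the deposited table (13.7%), 0 with slide as a fixed block (1.69%) or within the shared slide (0.286%), and 6 without the 3 arrays that stood apart (20%). On full NTBC they were 0 with the deposited table (12.1%) or normexp (9.65%) and 2 with the groups alone (12.8%). Between Fah-/- p21-/- and Fah-/- livers they were 2 with the deposited table (7.55%) or the mean of probes (7.51%), 1 higher and 1 lower each. They were 0 with the groups alone (1.73%), slide as a fixed block (0.419%) or within the shared slide (0.0542%). Between Fah-/- p53-/- and Fah-/- p21-/- livers they were 7 without the 3 arrays (13.3%). They were 0 with the groups alone (2.42%), no filter (5.61%), normexp (2.3%), slide as a fixed block (0.926%) or within the shared slide (0.197%). The difference in response to no NTBC gave 1 without the 3 arrays (13.5%). For reduced against full NTBC in Fah-/- p53-/- livers they were 5 with the groups alone (39.2%) and 7 with normexp, 3 higher and 4 lower (52.6%). For the same doses in Fah-/- livers they were 7 with the groups alone (44.2%). They were 1 there with no filter (24.7%), normexp (9.86%), quantile normalization (38%) or slide as a random block (37.6%).

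With each array left out in turn, called markers numbered 20 to 30 in Fah-/- p53-/- and 20 to 29 in Fah-/- livers with no against full NTBC, 13 to 28 in Fah-/- p53-/- and 20 to 29 in Fah-/- livers with no against reduced NTBC, and 2 to 3 in Fah-/- p53-/- and 1 to 2 in Fah-/- livers with reduced against full NTBC. Between Fah-/- p53-/- and Fah-/- livers they numbered 0 to 1 on full, 1 to 1 on reduced and 1 to 5 with no NTBC, for Fah-/- p21-/- against Fah-/- livers 1 to 3, for Fah-/- p53-/- against Fah-/- p21-/- livers 0 to 8, and 0 to 1 for both differences in response. Except where stated above, no share of all genes is given for these fits. The ranges only describe how the counts moved with single arrays.

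Samples with the same replicate number correlated between -0.23 and 0.36, and in no comparison did every pair pass 0.1. The main fit used no pairing, and these correlations cannot show that none exists. Some samples with no NTBC and the same number also shared a slide. These were replicates 1 and 2 of Fah-/- p53-/- and Fah-/- p21-/-, and replicates 3 and 4 of Fah-/- p21-/- and Fah-/-. The replicate block gave 23 called markers in Fah-/- p53-/- and 26 in Fah-/- livers with no against full NTBC, and 0 between Fah-/- p53-/- and Fah-/- p21-/- livers. Signal near background limits Ccr2, Cx3cr1, Itgam, Gpnmb and Spi1.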

Other observations

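With no against full NTBC, 29.6% of all genes were called higher and 40.1% lower in Fah-/- p53-/- livers, and 29.3% higher and 41.6% lower in Fah-/- livers. Of 11 measured inflammatory mediators, 1 rose and 4 fell in Fah-/- p53-/- livers, and 4 rose and 4 fell in Fah-/- livers. Il1rn, the decoy ligand of the interleukin-1 receptor, rose by 2.34 ± 0.36 in Fah-/- p53-/- livers and by 2.92 ± 0.36 in Fah-/- livers, while Il18, an interleukin-1 family cytokine, fell by 2.06 in Fah-/- p53-/- and fell by 2.48 in Fah-/- livers. Ptgs2, cyclooxygenase-2, was not above background on any Fah-/- array on full NTBC and was at least 5.14-fold higher with no NTBC (4 of 4 arrays, adjusted p = 2.84e-09, limma). It passed the filter on dim probes only through Fah-/- and Fah-/- p21-/- livers with no NTBC, so its call is not independent of that choice.

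Of 9 measured genes of MHC class II presentation, 3 rose and 1 fell in Fah-/- p53-/- livers and 2 rose and 0 fell in Fah-/- livers. H2-DMa, a peptide-loading chain, rose by 1.08 ± 0.30 in Fah-/- p53-/- and by 1.07 ± 0.30 in Fah-/- livers, and H2-Ab1, a class II beta chain, fell by 1.06 in Fah-/- p53-/- livers. All 4 measured erythroid genes fell in both genotypes, with a median of -3.49 in Fah-/- p53-/- and -1.91 in Fah-/- livers.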
